A study of Mus musculus with 37 samples.

Results

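Dividing cells were picked out of the nonmyocyte population of injured mouse hearts at 7 days after ischemic cardiac injury. A cell barcode was called dividing when its counts of 6 genes of the cell cycle, Top2a, Birc5, Ube2c, Mki67, Pclaf and Cenpa, summed to 6 or more. By this rule 249 of 12807 barcodes were dividing, of any lineage. A barcode was placed among fibroblasts when Col1a1, Col1a2, Col3a1 and Dcn together made up 0.5% or more of its counts, among macrophages when C1qa, C1qb and C1qc made up 0.3% or more, and among endothelial cells when Pecam1, Cdh5, Emcn, Egfl7 and Flt1 made up 0.3% or more. Barcodes that met more than 1 of these lineage rules, or none, were kept apart. The ENPP1CKO library held 7460 barcodes, of which 114 were dividing, and the control library held 5347, of which 135 were dividing.

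Both groups were C57BL/6 mice. ENPP1CKO animals carried Enpp1 alleles flanked by loxP sites and Col1a2CreERT, a tamoxifen-activated recombinase driven from a collagen promoter that is active in cardiac fibroblasts (CFs), and were given tamoxifen from before injury until the hearts were taken. Control animals were littermates, recorded as wild type. Whether the controls of this library carried Cre or loxP-flanked alleles, or received tamoxifen, is not stated in the sources used here. ENPP1 is an ectonucleotidase, an enzyme of the cell surface that cleaves extracellular ATP, and the comparison asks what the nonmyocytes of the healing heart look like when CFs lack it. Because the Cre acts in cells that use the Col1a2 promoter, dividing macrophages and endothelial cells of ENPP1CKO hearts were not themselves its target. Each genotype was 1 library, and the number and age of the hearts behind each library are not given in the sources used here. No difference below therefore has a replicate check, and all are differences between 2 libraries. The members were selected on these measured counts, so the counts of the rule genes are no result. Values carry exact 95% intervals from the counts, which cover counting error only and not variation between animals. Ratios of summed counts treat each counted molecule as independent, so their intervals leave out variation between cells as well.

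Summed over barcodes, the libraries held 28039559 counts in ENPP1CKO and 22746607 in control, with medians of 3395.5 and 3703 counts per barcode and a minimum of 500 in each. Between the libraries 68 barcode sequences were shared, and 5 dividing barcodes lay among them. Without the shared barcodes the dividing share differed by -0.72 on the log2 scale over all barcodes and by -1.48 in fibroblasts. Dividing barcodes held more RNA than the others, with median totals of 6174 against 3365 counts in ENPP1CKO and 7231 against 3637 in control.

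A cell that divides first copies its DNA in S phase and then, after the G2 gap, separates its chromosomes in mitosis. Genes for DNA synthesis are switched on early by E2F factors, whereas the genes for the spindle, the kinetochores and cytokinesis peak in G2 and M, where the MuvB complex together with B-MYB and FOXM1 acts at promoters that carry CCAAT boxes, bound by NF-Y, and a short element named CHR (cell cycle genes homology region). In the healing heart both fibroblasts and macrophages divide, and fibroblasts that divide in the first week after infarction later supply the cells that lay down the scar. Of the genes in the rule, Top2a (topoisomerase that untangles sister chromatids), Ube2c (ubiquitin-conjugating enzyme that acts with the anaphase-promoting complex), Cenpa (centromeric histone), Birc5 (survivin, of the chromosomal passenger complex) and Mki67 (coat of mitotic chromosomes) peak in G2 and M, and Pclaf, a partner of the replication clamp PCNA, belongs to S phase.

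Promoters of 3 rule genes, Top2a, Ube2c and Birc5, and of 2 G2 and M genes outside the rule, Ccnb2 and Hmmr, are shown because CCAAT and CHR elements are known from promoters of this kind and the genes shown differ in how many they hold. Each runs from 250 bases before to 50 bases after the gene's start in the RefSeq annotation of GRCm38.p6 and reads 5′ to 3′ on the gene's own strand. Capitals mark the letters CCAAT, which read ATTGG when the box lies on the opposite strand, and the CHR element, which was searched for as TTTGAA, with TTCAAA as its reverse complement, and as the palindrome TTTAAA. Top2a lies at chr11:99024140-99024439 (minus strand), Ube2c at chr2:164769679-164769978 (plus), Ccnb2, which encodes cyclin B2, at chr9:70421505-70421804 (minus), Hmmr, which encodes a spindle protein, at chr11:40733388-40733687 (minus), and Birc5 at chr11:117848987-117849286 (plus).
Top2a: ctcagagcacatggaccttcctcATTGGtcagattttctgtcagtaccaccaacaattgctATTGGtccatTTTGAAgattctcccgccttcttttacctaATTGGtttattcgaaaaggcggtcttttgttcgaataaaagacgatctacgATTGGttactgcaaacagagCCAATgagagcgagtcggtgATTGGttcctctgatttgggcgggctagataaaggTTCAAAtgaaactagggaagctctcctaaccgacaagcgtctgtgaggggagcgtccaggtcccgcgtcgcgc
Ube2c: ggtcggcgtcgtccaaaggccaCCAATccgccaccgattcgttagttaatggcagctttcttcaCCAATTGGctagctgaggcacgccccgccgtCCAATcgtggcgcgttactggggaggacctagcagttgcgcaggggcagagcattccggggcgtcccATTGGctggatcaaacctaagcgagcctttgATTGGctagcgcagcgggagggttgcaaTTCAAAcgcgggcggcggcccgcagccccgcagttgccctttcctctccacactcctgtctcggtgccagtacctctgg
Ccnb2: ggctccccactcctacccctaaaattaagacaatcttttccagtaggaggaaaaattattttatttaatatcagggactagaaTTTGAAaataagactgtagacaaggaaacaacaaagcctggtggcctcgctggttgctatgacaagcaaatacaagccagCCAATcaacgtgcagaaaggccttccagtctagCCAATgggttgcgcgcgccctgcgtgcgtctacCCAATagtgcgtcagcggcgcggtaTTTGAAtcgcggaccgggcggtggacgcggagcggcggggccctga
Hmmr: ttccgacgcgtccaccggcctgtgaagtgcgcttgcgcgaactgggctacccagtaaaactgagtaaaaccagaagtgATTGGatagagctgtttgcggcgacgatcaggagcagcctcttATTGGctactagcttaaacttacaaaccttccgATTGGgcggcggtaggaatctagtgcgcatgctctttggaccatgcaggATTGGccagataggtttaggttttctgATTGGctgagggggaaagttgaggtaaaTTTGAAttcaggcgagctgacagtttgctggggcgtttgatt
Birc5: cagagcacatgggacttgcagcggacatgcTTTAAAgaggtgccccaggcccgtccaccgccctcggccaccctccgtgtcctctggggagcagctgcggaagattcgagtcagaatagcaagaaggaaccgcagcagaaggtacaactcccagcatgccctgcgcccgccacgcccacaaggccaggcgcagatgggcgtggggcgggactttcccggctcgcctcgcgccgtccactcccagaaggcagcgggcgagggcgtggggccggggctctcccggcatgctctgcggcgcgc
The Top2a and Ube2c windows held 6 CCAAT matches each, where CCAATTGG in Ube2c was counted as 2 overlapping matches on opposite strands. Hmmr held 5 and Ccnb2 held 3. Birc5 held 0 CCAAT matches and 1 CHR match. CCAAT matches were therefore not shared by every gene of the rule, whereas each rule gene held at least 1 CHR match.

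Among 27025 promoters of the same length, 37.8% held a CCAAT match on either strand, 27.9% a CHR match and 10.8% both. Of 93 genes in a list of G2 and M genes, 76 had a promoter in the table, and 71.1% of those held CCAAT, 68.4% held CHR and 56.6% held both. Of 60 genes in a list of S phase genes, 47 had a promoter, and 61.7% held CCAAT, 17.0% held CHR and 10.6% held both. CCAAT matches were therefore common to both lists, whereas CHR matches were frequent in the G2 and M list. The CHR share of the S list was close to the 20.0% of the promoters of genes tested in fibroblasts. A match describes the letters of the window and is not a measured binding site.

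The counts of the rule genes in dividing barcodes are a description, since they chose the barcodes. Levels are given as counts per 1000000 summed counts of a group of barcodes (CPM). Pclaf reached 702 CPM in ENPP1CKO and 500 CPM in control dividing barcodes, against 3.37 and 4.61 CPM in the other barcodes. Cenpa reached 588 and 563 CPM against 21.4 and 27.3 CPM, the highest level of the 6 genes outside the dividing barcodes. Birc5 was detected in 84.2% and 88.1% of dividing barcodes and Ube2c in 58.8% and 68.1%. In 83 of 114 ENPP1CKO and 102 of 135 control dividing barcodes at least 4 of the 6 genes had a count, and all 6 had one in 38 and 41. The lineages leaned on different genes of the rule. Top2a had 265 and 275 CPM in dividing fibroblasts and 637 and 727 CPM in dividing macrophages, whereas Cenpa had 793 and 687 CPM in fibroblasts and 395 and 457 CPM in macrophages.

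The sum of the 6 genes had a median of 16 in ENPP1CKO and 19 in control dividing barcodes and reached 78 and 79. Barcodes just inside the threshold, with a sum of 6, numbered 7 in each library and held a median of 26 and 22 counts of the G2 and M list. Barcodes just outside, with a sum of 5, numbered 5 and 12 and held a median of 16 and 27. Most barcodes were far from the threshold, with a sum of 0 in 6576 of 7460 and 4461 of 5347.

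The lineage names were checked against 5 markers of each lineage that its rule did not use. At least 1 of Pdgfra, Postn, Lum, Tcf21 and Dpt had a count in all 41 ENPP1CKO and 63 control dividing fibroblasts, at a summed level of 7252 and 5166 CPM, and in 21 of 41 and 20 of 37 dividing macrophages, at 157 and 117 CPM. At least 1 of Adgre1, Csf1r, Cd68, Mrc1 and Fcgr1 had a count in 40 of 41 and 37 of 37 dividing macrophages, at 1629 and 1579 CPM, and in 5 of 41 and 20 of 63 dividing fibroblasts, at 14.7 and 40.5 CPM. Markers of another lineage were present at a low level. Of the dividing fibroblasts, 2 of 41 and 13 of 63 had at least 3 of 8 macrophage markers. Over all dividing fibroblasts, C1qa, C1qb and C1qc stood at 0.563% and 1.24% of the level in macrophages, compared with 0.872% and 1.35% in the other fibroblasts. Of the dividing macrophages, 20 of 41 and 23 of 37 had at least 3 of 9 fibroblast markers. Over all dividing macrophages, Col1a1, Col1a2, Col3a1 and Dcn stood at 1.85% and 1.47% of the level in fibroblasts, compared with 1.40% and 1.65% in other macrophages. Of the dividing fibroblasts, 3 of 41 in ENPP1CKO and 4 of 63 in control had at least 3 of 8 endothelial markers, which made up at most 2.54% and 0.235% of the counts of a barcode, and 2 of 41 and 0 of 63 had at least 3 of 8 T or NK cell markers. The part of this RNA in the results that follow was not tested.

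Dividing cells were a larger part of the control library. They made up 2.52% (95% interval 2.12 to 2.98%) of control barcodes and 1.53% (1.26 to 1.83%) of ENPP1CKO barcodes, 1.65-fold more in control. Among fibroblasts, 63 of 2053 (3.07%, 2.37 to 3.91%) were dividing in control and 41 of 3847 (1.07%, 0.766 to 1.44%) in ENPP1CKO, a log2 ratio of ENPP1CKO over control of -1.53 (-2.13 to -0.94) or 2.88-fold more in control. Among macrophages, 41 of 1976 (2.07%, 1.49 to 2.80%) were dividing in ENPP1CKO and 37 of 1997 (1.85%, 1.31 to 2.54%) in control, a log2 ratio of 0.16 (-0.51 to 0.84). That interval spans a lower share as well as a higher one. Endothelial barcodes were too few to compare, with 8 of 616 (1.30%) dividing in ENPP1CKO and 2 of 135 (1.48%) in control, a log2 ratio of -0.19 (-2.52 to 3.08). Barcodes of no lineage were dividing in 22 of 924 (2.38%) and 28 of 1109 (2.52%), and those of several lineages in 2 of 97 and 5 of 53. For CFs the paper reports the opposite direction. It gives a higher average level of cell cycle genes in ENPP1CKO and, by immunostaining, a larger share of proliferating CFs. The paper's score came from its single-cell sequencing of nonmyocytes, and neither measure is the rule used here. The opposite direction was not limited to the rule. Over all fibroblasts, the summed level of the G2 and M list was lower in ENPP1CKO, with a log2 ratio of -0.50 (-0.53 to -0.47). That of the S list was lower as well, with -0.12 (-0.16 to -0.08). The cause of the opposite directions was not tested.

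**Figure D1:**
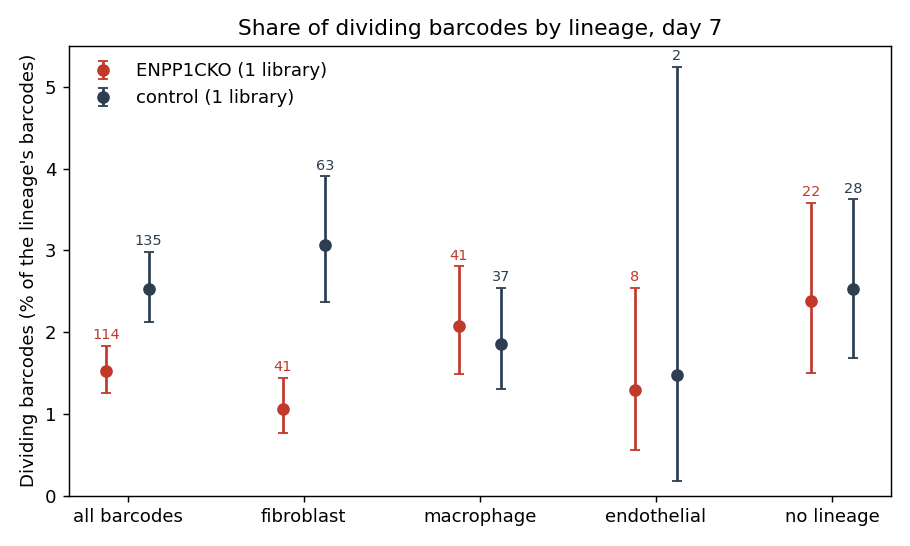
Share of dividing barcodes (% of the lineage's barcodes) in the ENPP1CKO (red) and control (dark blue) libraries, with exact 95% binomial intervals and the number of dividing barcodes above each point. The fibroblast shares, 1.07% and 3.07%, have intervals that do not overlap, whereas those of macrophages, 2.07% and 1.85%, do.

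The lineages themselves took different shares of the libraries. Fibroblasts made up 51.6% of ENPP1CKO and 38.4% of control barcodes, macrophages 26.5% and 37.3%, and endothelial cells 8.26% and 2.52%. As a share of the whole library, dividing fibroblasts were 0.55% of ENPP1CKO and 1.18% of control barcodes (log2 ratio -1.10, -1.70 to -0.51) and dividing macrophages 0.55% and 0.692% (-0.33, -1.01 to 0.35). Among the dividing barcodes, 36.0% in ENPP1CKO and 46.7% in control were fibroblasts, and 36.0% and 27.4% were macrophages.

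Depth moved with the fibroblast result. The rule counts molecules, and control fibroblasts held more of them, with median totals of 9118 in dividing and 5143 in other barcodes against 7334 and 4031 in ENPP1CKO. The dividing share climbed with the total in both libraries. Among fibroblasts with 500 to 2000 counts, 0 of 465 ENPP1CKO and 0 of 200 control barcodes were dividing. With 2000 to 4000 counts 2 of 1411 (0.142%) and 3 of 442 (0.679%) were, with 4000 to 8000 counts 24 of 1690 (1.42%, 0.912 to 2.11%) and 21 of 1008 (2.08%, 1.29 to 3.17%), and with 8000 counts or more 15 of 281 (5.34%, 3.02 to 8.65%) and 39 of 403 (9.68%, 6.97 to 12.99%). The share was lower in ENPP1CKO in each of these last 3 ranges, by log2 ratios of -2.26 (-5.84 to 0.87), -0.55 (-1.46 to 0.36) and -0.86 (-1.82 to 0.03), and each interval reached past 0. When the control fibroblasts were weighted to the totals of the ENPP1CKO fibroblasts, the control share became 1.65% and the log2 ratio -0.63.

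When every barcode was instead thinned to 2000 counts and the rule set at 3, 32 of 3383 (0.946%) ENPP1CKO and 49 of 1855 (2.64%) control fibroblasts were dividing. The unthinned shares over barcodes of that depth were 1.21% and 3.40%, and 465 and 200 shallower fibroblasts were left out. The size of the fibroblast difference thus depended on how totals were treated. Within ranges of totals it ran from a log2 ratio of -0.55 to one of -2.26, the latter from 2 and 3 dividing barcodes. With weighting it was -0.63. Thinning, in contrast, left the 2 shares about as far apart in proportion as the unthinned shares. The direction was the same in each of these forms. Depth and division cannot be told apart here. In macrophages the thinned shares were 43 of 1661 (2.59%) and 36 of 1598 (2.25%). Weighted to the ENPP1CKO totals, the control macrophage share became 1.26% and the log2 ratio 0.72, so this value moved with totals as well.

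**Figure D2:**
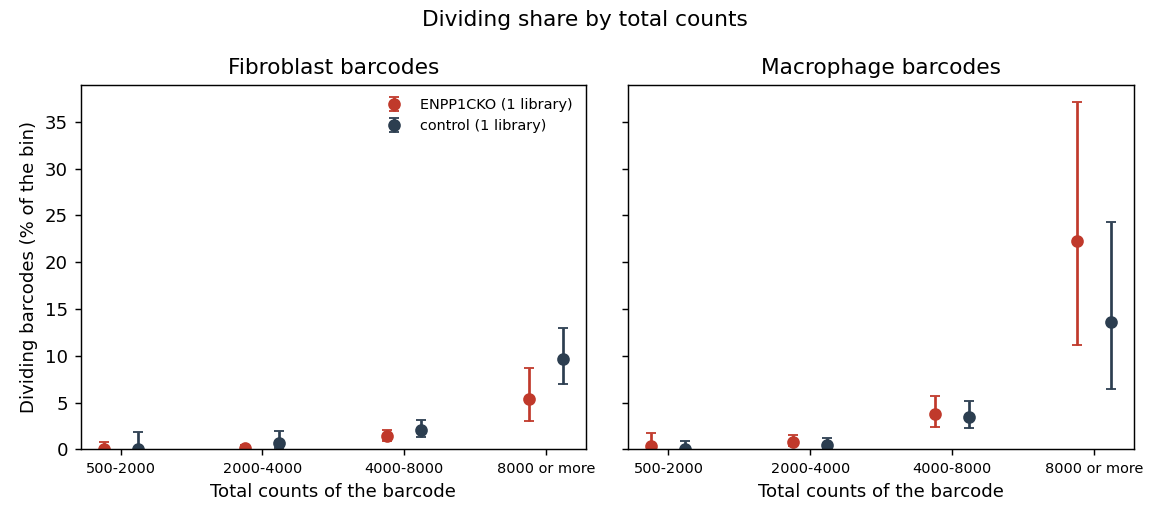
Share of dividing barcodes (% of the bin) against the total counts of the barcode in fibroblasts (left) and macrophages (right) of the ENPP1CKO (red) and control (dark blue) libraries, with exact 95% intervals. The shares climb with the total in both libraries, to 5.34% and 9.68% in fibroblasts and 22.2% and 13.6% in macrophages with 8000 counts or more.

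The G2 and M list, whose genes were not in the rule, had 1052 CPM over all ENPP1CKO fibroblasts and 1487 CPM over all control ones (log2 ratio -0.50), and the S list 604 and 657 CPM (-0.12). In the fibroblasts outside the rule the lists had 811 and 843 CPM (-0.057) and 564 and 580 CPM (-0.041). Cells in S phase can fall outside a rule made mostly of G2 and M genes. Of fibroblasts outside the rule, 40 of 3806 (1.05%) in ENPP1CKO and 65 of 1990 (3.27%) in control held 10 or more counts of the S list, a log2 ratio of -1.64 (-2.24 to -1.05). The same count in macrophages was 17 of 1935 (0.879%) and 26 of 1960 (1.33%), a log2 ratio of -0.59 (-1.57 to 0.34), an interval that includes 0. This measure too grows with the total of a barcode.

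Fibroblasts were divided at the median of a list of contractile genes, which mark the myofibroblast state, and of a list of genes of Pi16 and Clec3b-expressing fibroblasts, an adventitial, quiescent type. Above the contractile median 36 of 1742 (2.07%) ENPP1CKO and 59 of 1208 (4.88%) control fibroblasts were dividing, and at or below it 5 of 2105 (0.238%) and 4 of 845 (0.473%). Fibroblasts above the median of the Clec3b-type list were dividing in 0.481% and 1.03%, and those at or below it in 1.75% and 4.57%. Above the median of the inflammatory list 0.861% of ENPP1CKO and 3.15% of control fibroblasts were dividing, and at or below it 1.24% and 2.96%. Macrophages above the median of resident macrophage genes were dividing in 1.14% and 0.968%, and those at or below it in 3.15% and 2.62%. For MHC class II genes the macrophage shares were 2.02% and 1.69% above the median and 2.13% and 2.00% at or below it. In each of these groups of fibroblasts the control share was the higher one. The groups were not matched on total counts, whose part in these shares was not tested.

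Most dividing barcodes read as G2 or M. The G2 and M list made up a median of 1.40% of the counts of ENPP1CKO and 1.18% of control dividing barcodes, against 0.0808% and 0.0823% in the others, and 111 of 114 and 116 of 135 lay above the 99th percentile of the other barcodes. The S list made up 0.217% and 0.154%, against 0.0518% and 0.0525%, and 46 and 38 lay above that percentile. Counts of the G2 and M list exceeded those of the S list in 109 of 114 and 131 of 135. The lean to G2 and M follows from the genes of the rule and is not a finding. In dividing fibroblasts, the S list took 16.8% (15.8 to 17.8%) of the counts of both lists in ENPP1CKO and 13.9% (13.2 to 14.6%) in control, a log2 ratio of S over G2 and M of 0.32 (0.18 to 0.45). It became 0.14 when Pclaf, the S phase gene of the rule, was left out, 0.16 at a threshold of 10 counts, 0.51 with the lineage thresholds doubled and 0.64 after thinning to 2000 counts. The median over single fibroblasts went the other way, 8.87% and 9.59%, so the summed difference rested on barcodes rich in S counts. In dividing macrophages the share was 18.3% and 16.9%, a log2 ratio of 0.14 (-0.03 to 0.31) that became -0.060 without Pclaf and -0.098 after thinning, with medians of 13.5% in each library.

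**Figure D3:**
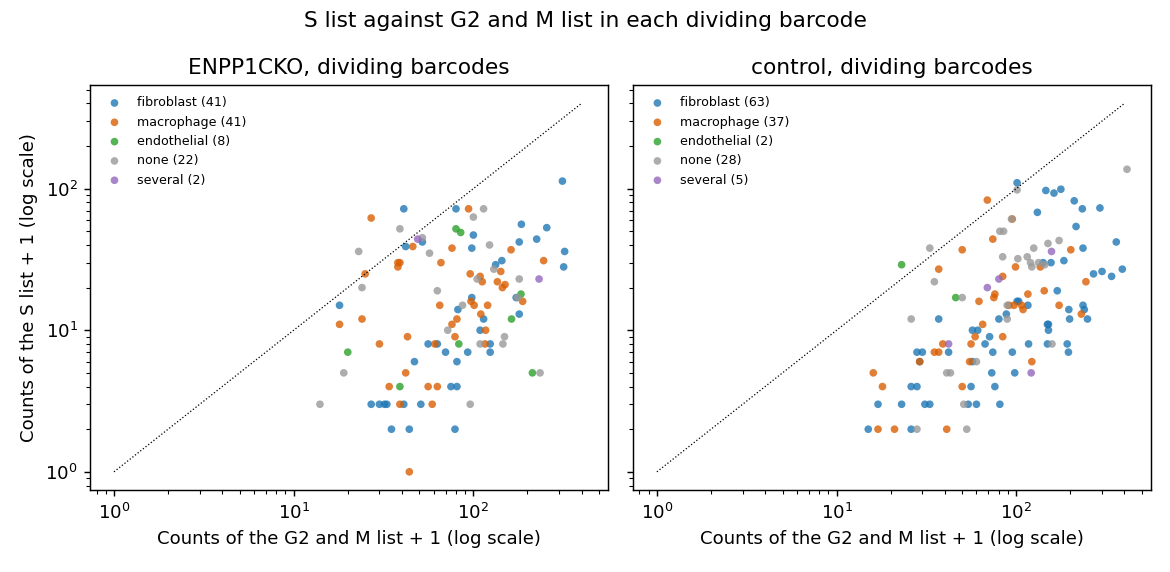
Counts of the S list against counts of the G2 and M list, each plus 1 and on log scales, in every dividing barcode of the ENPP1CKO (left) and control (right) libraries, coloured by lineage, with a dotted line where both are equal. Most points lie under the line, with more G2 and M than S counts in 109 of 114 and 131 of 135 barcodes.

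Dividing fibroblasts were also set beside the other fibroblasts of their library. This contrast shares its cells with the rule and is given as a description. Of 5499 genes with at least 20 counts in dividing fibroblasts, 384 (6.98%) were at least 2-fold higher in the dividing barcodes of both libraries and 106 (1.93%) at least 2-fold lower. Of the G2 and M list 80 of 82 genes were higher, with median log2 ratios of 6.20 in ENPP1CKO and 5.75 in control, and of the S list 32 of 35, with medians of 2.13 and 1.86, against medians of 0.10 and 0.14 over all genes. Of 11 genes that supply deoxynucleotides 8 were higher, and of 9 core and linker histone genes 5.

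Genes with large ratios are given here by their levels. Hmmr stood at 259 CPM in dividing against 0.48 CPM in other ENPP1CKO fibroblasts and at 186 against 0.54 CPM in control. Pbk, a mitotic kinase, stood at 192 against 0 CPM and at 126 against 0.36 CPM. Cenpe and Cenpf, which act at kinetochores, stood at 203 against 0.54 CPM and 227 against 1.37 CPM in ENPP1CKO, and at 207 against 1.62 CPM and 186 against 1.26 CPM in control. The cyclins Ccna2 and Ccnb1, which drive the entry into mitosis, stood at 147 against 0.36 CPM and 118 against 0.72 CPM in ENPP1CKO, and at 159 against 0.63 CPM and 215 against 0.72 CPM in control. Nusap1, which bundles spindle microtubules, was among the highest genes of both fibroblasts and macrophages. Hist1h1b, a linker histone made with new DNA, stood at 189 against 0.30 CPM and 116 against 0.99 CPM.

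Among the lowest genes of dividing fibroblasts were genes of settled connective tissue. Eln, elastin, stood at 256 CPM in dividing against 1878 CPM in other ENPP1CKO fibroblasts and at 500 against 1638 CPM in control. Fbln1, which encodes a matrix glycoprotein, stood at 130 against 782 CPM and 138 against 572 CPM, and Gsn, an actin-severing protein, at 710 against 2181 CPM and 513 against 1552 CPM. Of the fibrillar matrix and scar list 5 of 41 genes were at least 2-fold lower in both libraries, and of the contractile list 5 of 15 were at least 2-fold higher. Of the purine list 0 of 12 genes and of the pyrimidine list 1 of 8 were at least 2-fold higher. Against 410 ENPP1CKO and 630 control fibroblasts of similar totals, 349 genes were higher and 54 lower, and the G2 and M list again gave 80 of 82.

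In dividing macrophages, genes of the G2 and M and S lists were again higher than in the other macrophages. Of 3207 genes tested, 299 (9.32%) were at least 2-fold higher in the dividing barcodes of both libraries and 20 (0.624%) lower. The G2 and M list gave 62 of 65 genes, with median log2 ratios of 5.60 and 5.50, and the S list 27 of 30, with medians of 2.76 and 2.35, against 0.23 in each library over all genes. Nusap1 stood at 319 against 0.60 CPM in ENPP1CKO and 211 against 0.42 CPM in control, and Prc1, of the central spindle, at 214 against 2.09 CPM and 270 against 2.26 CPM. Stmn1, which destabilises microtubules, stood at 2492 against 71.3 CPM and 1970 against 70.0 CPM. Of the resident macrophage list 2 of 12 genes were at least 2-fold lower in both libraries. Among the lowest genes, Apoe, apolipoprotein E, stood at 13446 against 45859 CPM in ENPP1CKO and 11199 against 40893 CPM in control, and Selenop, a selenium carrier, at 1040 against 3208 CPM and 465 against 2583 CPM.

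**Figure D4:**
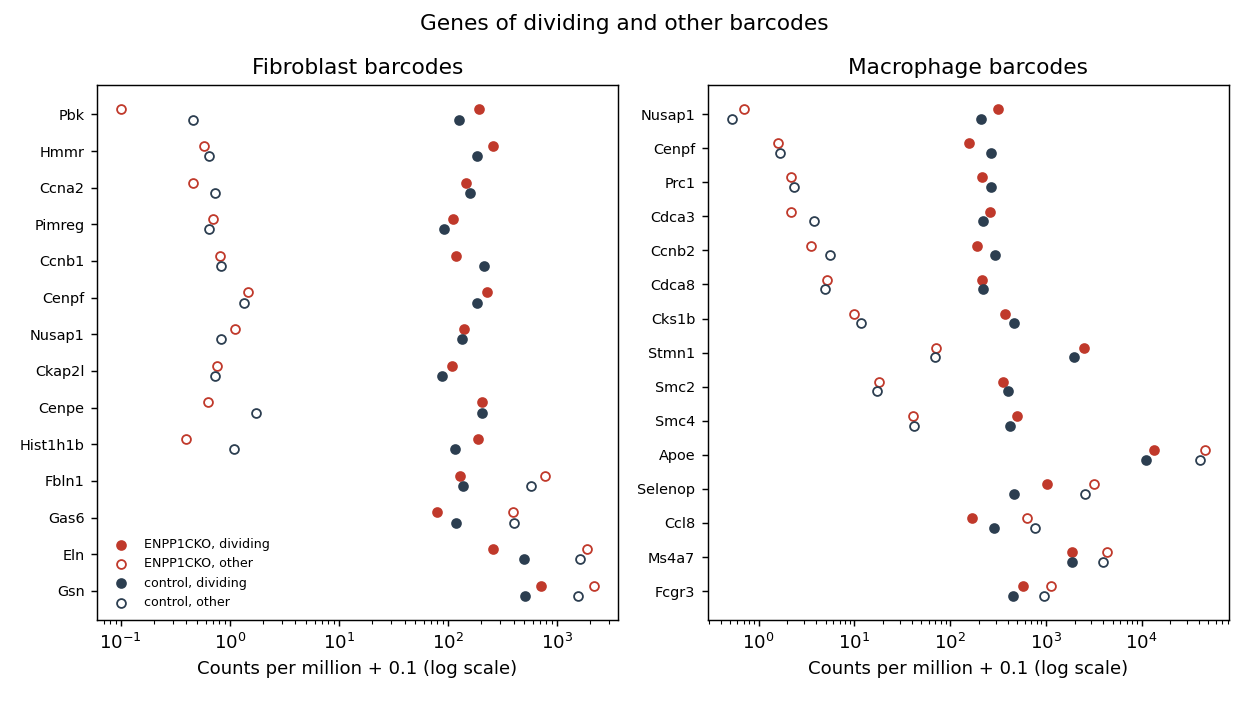
CPM plus 0.1 (log scale) of the genes highest and lowest in dividing over other barcodes, in fibroblasts (left) and macrophages (right), with filled circles for dividing and open circles for other barcodes of the ENPP1CKO (red) and control (dark blue) libraries. In fibroblasts the mitotic genes, such as Hmmr at 259 and 186 CPM, lie near or below 1 CPM in the other barcodes, and Eln lies at 1878 and 1638 CPM there against 256 and 500 CPM.

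Promoters of the genes higher in dividing cells carried the elements more often than promoters of all genes tested. Of 384 genes in fibroblasts 311 had a promoter in the table, and 60.8% of those held CCAAT, 39.2% held CHR and 27.3% held both, against 39.7%, 20.0% and 8.43% of the 4365 tested genes with a promoter. In macrophages 245 of 299 had one, with 60.0%, 38.8% and 25.7%, against 39.6%, 20.5% and 8.998% of 2556. At least 2 CCAAT matches were held by 32.8% of the fibroblast and 32.2% of the macrophage promoters, against 16.2% and 16.9%. Among the other genes of the rule, Mki67 held 3 CCAAT and 2 CHR matches, Pclaf 2 and 1, and Cenpa 2 and 2. The lists of G2 and M genes are part of these sets.

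Within the dividing fibroblasts the targeted gene was lower in ENPP1CKO. Enpp1 had 14 counts in 10 of 41 (24.4%, 12.4 to 40.3%) dividing fibroblasts of ENPP1CKO and 104 counts in 36 of 63 (57.1%) of control. Its level was 41.3 CPM (22.6 to 69.2) and 145 CPM (119 to 176), a log2 ratio of -1.82 (-2.74 to -1.01). In the other fibroblasts it stood at 28.6 and 118 CPM (-2.05). Dividing macrophages had a count in 0 of 41 and 2 of 37. Counts over a whole gene do not show whether the remaining transcripts carry the deleted part.

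Of the 5499 genes, 236 (4.29%) were at least 2-fold higher in ENPP1CKO dividing fibroblasts and 393 (7.15%) at least 2-fold lower, with a median log2 ratio of -0.02 and 48.1% of genes higher by any amount. These are sums over 41 and 63 barcodes, so the number of barcodes that hold a gene is given beside it. Cell cycle genes leaned to ENPP1CKO, and genes of inflammation, contraction, glycolysis and the immediate early response leaned to control.

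Among genes of DNA synthesis, 28 of 35 of the S list were higher in ENPP1CKO dividing fibroblasts, with a median log2 ratio of 0.54, against -0.05 for the same genes in the other fibroblasts. Over single dividing fibroblasts the median of the list was 1171 CPM in ENPP1CKO and 1036 CPM in control, and 5 barcodes held 40.7% and 35.9% of its counts. Lig1, the ligase that joins Okazaki fragments, had 33 counts in 12 barcodes and 28 in 14, a log2 ratio of 1.31 (0.54 to 2.09). Fen1, the nuclease that trims those fragments, had 13 counts in 7 barcodes and 11 in 11, a log2 ratio of 1.32 (0.04 to 2.62). Dtl, which directs the destruction of the licensing factor Cdt1 during S phase, had 19 counts in each library (1.08, 0.08 to 2.07). Of 69 listed genes of replication-dependent core and linker histones, which are made with new DNA, only 9 reached 20 counts. Of those 9, 8 were higher, with a median of 0.95. The linker histone Hist1h1e had 39 counts in 14 barcodes and 33 in 12 (1.32, 0.61 to 2.03), and Hist1h1c 99 in 26 and 107 in 39 (0.96, 0.56 to 1.37). Histone genes have near-identical copies, and how the counting split reads between them is not known. Of the G2 and M list 52 of 82 were higher, with a median of 0.17, and Ccnb1 was lower at 118 against 215 CPM (-0.87).

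Of 11 genes of deoxynucleotide supply, 7 were higher in ENPP1CKO dividing fibroblasts, with a median of 0.17. Tk1, the thymidine kinase of S phase, had 84 counts in 22 barcodes and 69 in 28, 248 against 96.4 CPM, a log2 ratio of 1.36 (0.88 to 1.84), where the other fibroblasts had -1.96. Rrm2, the inducible subunit of ribonucleotide reductase, stood at 136 against 71.3 CPM (0.93, 0.32 to 1.53), and Tyms, thymidylate synthase, at 259 against 173 CPM (0.58, 0.17 to 0.99). Of the pyrimidine synthesis and salvage list 6 of 8 genes were lower, with a median of -0.46, against -0.23 in the other fibroblasts. Umps, the enzyme that makes UMP, had only 5 and 19 counts, a log2 ratio of -0.85 (-2.63 to 0.62). Ctps, which makes CTP, had 9 and 31 counts (-0.71, -1.96 to 0.40). Nme1, a nucleoside diphosphate kinase, had 125 and 401 counts (-0.60, -0.91 to -0.31) and was the only gene of the 8 whose interval lay below 0. It held 125 of the 293 ENPP1CKO and 401 of the 790 control counts of the list. Purine genes were lower in 8 of 12, with a median of -0.24 and an interval below 0 for 1 of them. Differences between these lists were not tested.

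Of 14 targets of p53, 12 were lower in ENPP1CKO dividing fibroblasts, with a median of -0.31 against -0.04 in the other fibroblasts. The interval lay below 0 for 1 of the 14, Rps27l, a ribosomal protein gene named here for its interval, with 320 and 808 counts (-0.26, -0.45 to -0.071). Ccng1, cyclin G1, had 14 and 53 counts (-0.84, -1.81 to 0.03). Mdm2, which turns p53 over, had 7 and 21 counts (-0.51, -1.99 to 0.78). Of 15 inhibitors, D cyclins and their partners 10 were lower, with a median of -0.13 and an interval below 0 for 1 of them. Btg1, an antiproliferative factor, had 29 and 125 counts (-1.03, -1.67 to -0.44), Cdkn2b, an inhibitor of CDK4 and CDK6, had 4 and 21 (-1.32, -3.32 to 0.25), and Cdk6 itself had 16 and 15 (1.17, 0.06 to 2.29).

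Inflammatory genes were lower in 15 of 18, with a median of -0.65 against -0.47 in the other fibroblasts. Saa3, an acute-phase protein, had 0 counts in the 41 ENPP1CKO dividing fibroblasts and 1125 counts in 21 of 63 control ones, of which 449 lay in 1 barcode. Against a floor of 3 counts over the group, that is at least 178-fold lower. Ccl7, a monocyte chemoattractant, had 2 counts and 111 counts in 15 barcodes, a log2 ratio of -4.72 (-7.78 to -2.83). Cxcl5, a neutrophil chemoattractant, had 0 counts and 58 in 8 barcodes, at least 9.16-fold lower. Ccl5, a T cell chemoattractant, was higher, with 173 counts and 3 (6.93, 5.36 to 9.22), but 145 of the 173 lay in 1 barcode. The list was carried by few cells, since the 5 barcodes with most of its counts held 52.1% of them in ENPP1CKO and 52.8% in control. The median over single dividing fibroblasts was 956 CPM in ENPP1CKO and 1954 CPM in control. Outside this list, Serpinb2, a plasminogen activator inhibitor, had 0 counts and 398 in 5 barcodes, 227 of them in 1, at least 62.9-fold lower, and Clu, clusterin, had 1 count and 390 in 18 barcodes (-7.53, -12.84 to -5.04).

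Some of these genes are also expressed by blood-derived cells, several of whose markers moved the same way. C1qa, C1qb and C1qc were lower in ENPP1CKO dividing fibroblasts by a median of -0.88. All 5 monocyte genes with 20 counts were lower, Lyz2 among them with 37 and 192 counts (-1.30, -1.85 to -0.78), and 4 of 4 genes of MHC class II with a median of -1.47. In contrast, 3 of 4 resident macrophage genes were higher, with a median of 0.35, and Cd52, a gene of leukocytes, had 57 and 24 counts. The part of blood-derived cells in the inflammatory list was not tested. Ccl21a, a chemokine of lymphatic vessels, had 0 counts and 64 in 3 barcodes and has near-identical copies between which reads may be split. Gm12840, a noncoding gene, had 2 and 170 counts.

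Interferon-stimulated genes did not follow the inflammatory ones. Of 8, 6 were higher in ENPP1CKO dividing fibroblasts, with a median of 0.75, where the other fibroblasts had -0.43. Irf7, a factor of the interferon response, had 22 counts in 11 barcodes and 12 in 10 (1.95, 0.87 to 3.10). Isg15, a ubiquitin-like protein, had 48 in 17 and 37 in 20 (1.45, 0.80 to 2.11), and Bst2, tetherin, 146 in 33 and 170 in 48 (0.86, 0.53 to 1.19). Cxcl10 was the exception, with 0 counts against 64 in 11 barcodes, at least 10.1-fold lower. The median of the list over single fibroblasts was 512 and 423 CPM.

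Contractile genes were lower in 13 of 15, with a median of -0.36, against -0.59 in the other fibroblasts. Acta2, α-smooth muscle actin, had 542 counts in 30 of 41 and 1815 in 54 of 63 dividing fibroblasts, 1598 and 2536 CPM, a log2 ratio of -0.67 (-0.81 to -0.53). In the other fibroblasts Acta2 stood at 295 and 1068 CPM (-1.86), so dividing fibroblasts of both libraries held more of it than the others. Actg2, γ-smooth muscle actin, had 5 and 72 counts (-2.77, -4.44 to -1.48), Cnn1, calponin, had 6 counts in 1 barcode and 57 in 15 (-2.17, -3.68 to -0.96), and Des, desmin, had 3 and 51 (-3.01, -5.33 to -1.38). All 13 genes of glycolysis and hypoxia were lower, with a median of -0.77 against -0.56 in the other fibroblasts. Slc16a3, the lactate exporter, had 10 counts in 6 barcodes and 85 in 26 (-2.01, -3.12 to -1.06), and Pkm, pyruvate kinase, stood at 366 and 674 CPM (-0.88, -1.18 to -0.59).

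Genes of the matrix were split. Of 41, 22 were higher in ENPP1CKO dividing fibroblasts, with a median of 0.05, the same as in the other fibroblasts. Cilp, a matrix protein of cartilage and of stressed fibroblasts, had 173 counts in 27 of 41 and 36 in 16 of 63 dividing fibroblasts, 510 against 50.3 CPM, a log2 ratio of 3.34 (2.82 to 3.90), and one of 2.17 in the other fibroblasts. Thbs4, thrombospondin 4, had 116 counts in 18 and 39 in 15 (2.65, 2.11 to 3.21), and Col4a2, of the basement membrane, 117 in 34 and 95 in 31 (1.38, 0.97 to 1.78). Abi3bp had 109 counts in 20 barcodes, 44 of them in 1, and 34 in 18 (2.76, 2.19 to 3.36), or 2.29 without the top barcode of each library. Sparcl1 had 96 in 25 and 33 in 19 (2.62, 2.03 to 3.23). Acan, aggrecan, a proteoglycan of cartilage, had 2 counts in 1 barcode and 54 in 19 (-3.68, -6.76 to -1.76), and Col11a1, a collagen of cartilage, 37 and 180 counts (-1.21, -1.76 to -0.69). Of the rule genes of the lineage, Dcn stood at a log2 ratio of 0.71 and Col1a1 at -0.41.

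Genes of the Clec3b-type fibroblast were higher in 8 of 10, with a median of 0.36 against 0.34 in the other fibroblasts. Pi16 had 94 counts in 23 barcodes and 81 in 28 (1.29, 0.85 to 1.74), and Cd34 88 in 26 and 99 in 35 (0.91, 0.48 to 1.34). Tsc22d3, which glucocorticoids induce, had 78 counts in 26 and 38 in 23 (2.11, 1.54 to 2.71), with 2.04 in the other fibroblasts. Immediate early genes were lower in 15 of 22, with a median of -0.19. Jund, a subunit of AP-1, had 46 counts in 23 of 41 and 380 in 61 of 63 (-1.97, -2.44 to -1.53), and Klf2 56 in 17 and 344 in 47 (-1.54, -1.98 to -1.13). Igfbp7, an insulin-like growth factor binding protein, had 241 counts in 37 and 1671 in 63 (-1.72, -1.92 to -1.52), close to the -1.75 of the other fibroblasts. A few of the highest genes came from 1 barcode. Besides Ccl5, Fabp4, a gene of endothelial cells, had 201 of its 251 ENPP1CKO counts in 1 barcode, and Cd52, a gene of leukocytes, 38 of 57.

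Dividing macrophages of the libraries were compared in the same way. Of 3207 genes, 126 (3.93%) were at least 2-fold higher in ENPP1CKO and 139 (4.33%) at least 2-fold lower, with a median of -0.03 and 48.6% of genes higher by any amount. MHC class II genes, which present antigen to T cells, were higher in 6 of 6, with a median of 1.22 against 0.20 in the other macrophages. Cd74, the invariant chain, had 1507 counts in 31 of 41 and 611 in 27 of 37 dividing macrophages, 6076 and 2388 CPM, a log2 ratio of 1.35 (1.21 to 1.49). H2-DMb1 and H2-DMa, which load peptides, stood at 1.49 (0.74 to 2.28) and 1.42 (0.65 to 2.25), and H2-Eb1 at 1.09 (0.82 to 1.37). The difference rested on few cells. The 5 barcodes with most counts held 63.3% of the list in ENPP1CKO and 71.0% in control, the median over single barcodes was 998 and 696 CPM, and 12 of 41 (29.3%, 16.1 to 45.5%) and 6 of 37 (16.2%, 6.19 to 32.0%) held 1% or more of their counts in these genes. The log2 ratio of the list was 0.25 after thinning to 2000 counts, against 1.17 before.

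Fabp5 and Plin2, genes of lipid handling, and Lgals3 were among the lowest genes of ENPP1CKO over control in dividing macrophages. Lgals3, galectin 3, had 446 counts in 36 of 41 and 1245 in 37 of 37 dividing macrophages, a log2 ratio of -1.44 (-1.60 to -1.28). Fabp5, a fatty acid carrier, had 54 counts in 12 and 236 in 20 (-2.08, -2.54 to -1.65), and Plin2, which coats lipid droplets, had 54 and 165 (-1.57, -2.04 to -1.12).

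Of the S list 24 of 30 genes were higher in ENPP1CKO dividing macrophages, with a median of 0.33 against -0.11 in the others, and of the G2 and M list 42 of 65, with a median of 0.13. Clspn, which signals stalled replication, had 18 counts in 13 and 6 in 5 (1.63, 0.23 to 3.25), and Dut, which keeps uracil out of DNA, 34 in 20 and 15 in 10 (1.23, 0.31 to 2.21). Glycolytic genes were lower in 9 of 12, with a median of -0.49, equal to that of the other macrophages. Aldoa, aldolase, stood at 367 and 801 CPM (-1.13, -1.50 to -0.76). All 4 monocyte genes were lower, Lyz2 with 1882 and 3246 counts (-0.74, -0.82 to -0.66). Immediate early genes were higher in 16 of 20, with a median of 0.39, in contrast to dividing fibroblasts. Fos had 593 counts in 37 and 251 in 32 (1.29, 1.07 to 1.504), Jun 132 in 27 and 63 in 19 (1.11, 0.67 to 1.57), and Jund was lower at 165 against 356 CPM (-1.11, -1.67 to -0.56). The difference between fibroblasts and macrophages in these ratios was not tested.

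Inflammatory genes were higher in 15 of 21, with a median of 0.35 against 0.28 in the other macrophages. Ccl3, a macrophage inflammatory protein, had 122 counts in 21 and 42 in 15 (1.58, 1.07 to 2.13), and Icam1, an adhesion molecule, 30 in 19 and 13 in 8 (1.25, 0.27 to 2.31). Ccl6 had 280 in 28 and 89 in 23 (1.70, 1.35 to 2.06), a ratio of -0.92 in the other macrophages, and it became -0.19 with the lineage thresholds doubled. Cxcl10 had 31 of its 44 ENPP1CKO counts in 1 barcode, and its log2 ratio of 1.70 became 0.58 without the top barcode of each library. Interferon-stimulated genes were lower in 8 of 10, with a median of -0.43, and Isg15 had 7 counts in 7 and 42 in 12 (-2.54, -3.94 to -1.37). The median of the list over single barcodes went the other way, 746 CPM in ENPP1CKO and 604 CPM in control, and 5 control barcodes held 54.9% of its counts. Klf2 had 38 of its 66 control counts in 1 barcode, and -1.41 became -0.52 without the top barcode of each library. Clec4n, a lectin receptor, had 18 and 59 counts (-1.67), which became 0.092 after thinning to 2000 counts. Lower too were Cstb, a cathepsin inhibitor, with 118 and 318, Timm10b with 13 and 40, and Rpl9, a ribosomal gene with processed pseudogenes, with 22 and 65. Zfp36l1, an RNA-binding protein that destabilises AU-rich messages, was higher with 78 and 29 counts (1.47, 0.84 to 2.14).

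**Figure D5:**
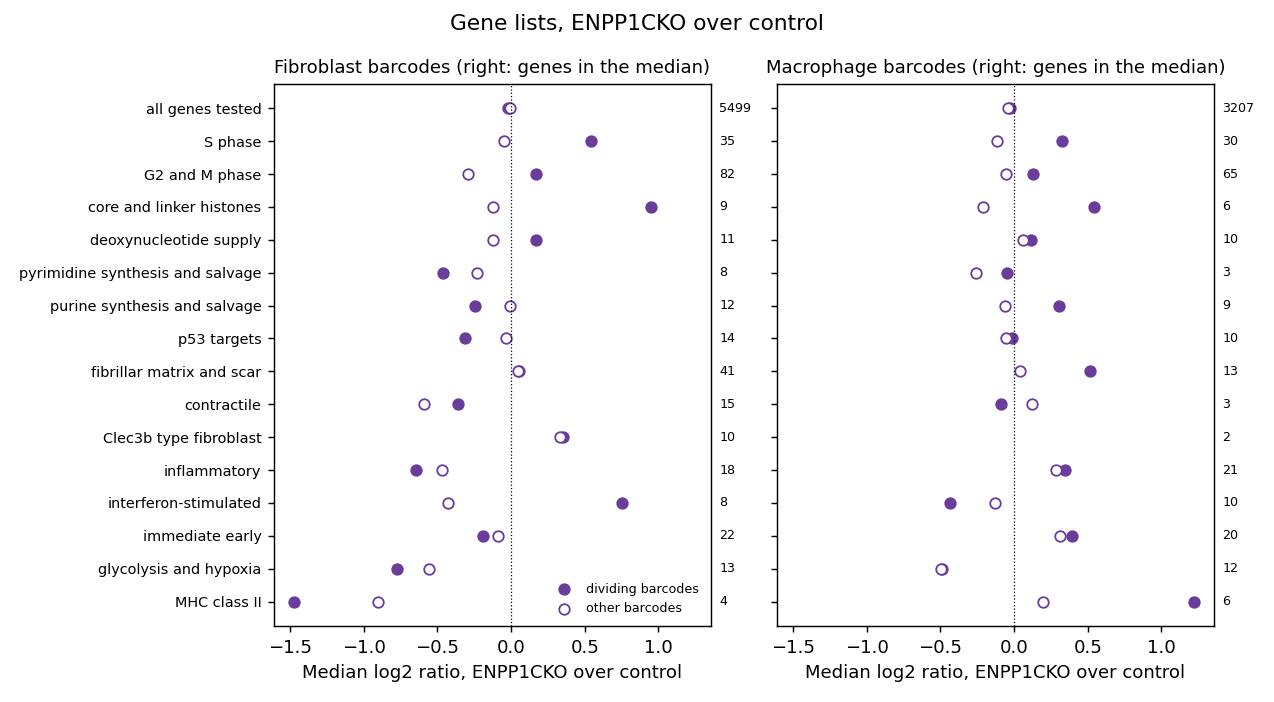
Median log2 ratio of ENPP1CKO over control for the genes of each list with at least 20 counts in dividing barcodes, in dividing (filled) and other (open) barcodes of fibroblasts (left) and macrophages (right), with the number of genes at the right. S phase, core and linker histone and interferon-stimulated genes lie above 0 in dividing fibroblasts (0.54, 0.95 and 0.75) and below 0 in the others, and MHC class II lies at -1.47 in dividing fibroblasts and 1.22 in dividing macrophages.

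Dividing endothelial cells, 8 in ENPP1CKO and 2 in control, allowed only counts of abundant genes. Of 371 genes tested, 76 (20.5%) were at least 2-fold higher and 28 (7.55%) at least 2-fold lower in ENPP1CKO, with 54.7% higher by any amount. Rbp7, a retinol-binding protein of capillaries, had 51 and 0 counts, at least 3.55-fold higher, and Ly6c1 66 and 1, a log2 ratio of 3.78 (1.26 to 9.11). Cxcl12, a chemokine, had 49 and 2 (2.35, 0.42 to 5.44), and Igfbp7 27 and 43 (-2.93, -3.68 to -2.20), lower here as in dividing fibroblasts. H2afz, a histone variant, stood at 4706 CPM in dividing against 654 CPM in other endothelial cells of ENPP1CKO and at 2636 against 682 CPM in control. With 2 control barcodes, every such value is the content of those barcodes.

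Dividing barcodes that met no lineage rule numbered 22 in ENPP1CKO and 28 in control. By the class with the most of its fixed markers, 4 and 11 of them were T or NK cell-like, 7 and 1 endothelial-like, 5 and 3 fibroblast-like and 3 and 7 macrophage-like. In ENPP1CKO 1 was dendritic-like, and in control 1 each was B cell-like, cardiomyocyte-like and smooth muscle or pericyte-like. The other 2 and 3 had no name, because they held fewer than 3 markers of every class or because classes tied. In control, 3 barcodes of no lineage held at least 3 of 4 plasma cell markers, which made up as much as 26.8% of a barcode's counts. At least 3 of 6 B cell markers were held by 3 control barcodes. None was named a plasma cell, since the name went by the number of markers and not by their level. A name needed only 3 markers with any count, and 20 of 41 and 23 of 37 dividing macrophages held that many fibroblast markers. Fibroblast markers made up a median of 0.062% and 0.035% of counts in dividing barcodes of no lineage. In dividing macrophages they made up 0.051% and 0.058%. The part of RNA from other cells in the fibroblast-like and macrophage-like names was not tested. Barcodes of the neutrophil type, 13 and 86, had median totals of only 814 and 696.5 counts, a depth at which the rule calls almost no barcode, so no dividing share is given for them.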

How the data were processed

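The authors deposited 1 table per library with counts of unique molecules per Ensembl gene and cell barcode. The submitters' processing notes name STAR 2.5.3a and Cell Ranger and the builds mm10 and rn6, without their roles for each data type. All 31053 gene identifiers were used, of which 30934 had a symbol. Of the series, 35 conditioned-medium libraries were not used here, and 0 columns of the tables used were left out.

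Barcodes were used as deposited. Removing barcodes under 200 genes, over 20% mitochondrial counts or marked by Scrublet (151 and 69 barcodes marked, scanpy 1.11.5) is an alternative, and took 205 and 107 barcodes with 1 dividing barcode in each library. Counts were summed over the barcodes of a group and divided by the group's total times 1000000 (CPM). Shares have exact Clopper-Pearson intervals, and ratios of sums have exact conditional binomial intervals, both at 95% (scipy 1.17.1). A ratio against 0 counts was taken against a floor of 3 counts over the group. With 1 library per genotype no test was made and no p-value is given, and a gene counted as changed past 2-fold. Gene ratios were computed for genes with at least 20 counts in the dividing barcodes of a lineage in the libraries together.

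The dividing cells, the gene lists and the markers were chosen with earlier results of these data known, so counts over a list describe it and are not independent evidence. Some items are not reported here. Named genes were the rule genes, Enpp1, the 10 highest and 5 lowest genes of dividing over other barcodes with at least 100 counts, the 8 highest and 8 lowest of ENPP1CKO over control with at least 50 counts and an interval without 0, and the 4 genes of each list with the largest ratio. Alternatives covered the threshold of the rule, each rule gene left out, the lineage thresholds, the count minimum, thinning to 2000 counts and factors by trimmed mean of M values (edgeR 4.0.16). The ratio and interval code was tested on simulated data.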

Additional observations from a re-analysis of the deposited data

Results flagged for a closer look

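The dividing share was lower in ENPP1CKO than in control fibroblasts, with a log2 ratio of -1.53 (-2.13 to -0.94), and higher in macrophages, with 0.16 (-0.51 to 0.84). The ratios have opposite signs, which is why they are listed, but the difference between the lineages was not tested, and the macrophage interval includes 0.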

How the results depend on the processing

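Of 494 alternative values, 19 took the opposite sign, 5 of them for values whose interval excluded 0 and 14 for values whose interval included it, and 84 moved out of the counting interval or by over 1.5 times. The fibroblast share (log2 ratio -1.53) became -2.26, -0.55 and -0.86 in barcodes of 2000 to 4000, 4000 to 8000 and 8000 or more counts, and -0.63 with control weighted to the ENPP1CKO totals. After thinning to 2000 counts the fibroblast shares were 0.946% in ENPP1CKO and 2.64% in control. S over G2 and M in fibroblasts (0.32) became 0.16 at a threshold of 10, 0.14 without Pclaf, 0.51 with lineage thresholds doubled and 0.64 after thinning to 2000 counts, and in macrophages (0.14) -0.060 without Pclaf and -0.098 after thinning. Genes past 2-fold in dividing fibroblasts (629) numbered 181 with at least 50 counts, 5572 with no minimum and 130 after thinning, where fewer or more genes were tested. Reversed were the resident macrophage list (0.22), to -0.043 at a threshold of 4 and -0.54 thinned, Ccl6 of macrophages (1.70) to -0.19 with lineage thresholds doubled, the matrix list of dividing fibroblasts (0.15) to -0.039 and Clec4n of macrophages (-1.67) to 0.092 thinned; the cause was not tested. The share over all barcodes and Enpp1 kept their direction and stayed within their intervals. The macrophage and endothelial shares, whose intervals include 0, stayed within them but changed sign in 4 and 5 alternatives, and dividing endothelial cells gave no value with lineage thresholds doubled. Trimmed-mean factors moved the median of all genes in fibroblasts from -0.02 to -0.09. The ranges of total counts, the weighting and the removal of shared or top barcodes were chosen after seeing the data. Depth limits genes under about 20 counts and the endothelial comparison. No paired analysis was possible because each genotype was 1 library and no result comes from a test.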
